A study of Mus musculus with 4 samples.

Results

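The genes described here encode the Hsp70, Hsp110 and Hsp90 chaperones and the J-proteins of the mouse, together with the heat shock factors Hsf1 and Hsf2. They were taken by gene symbol from a deposited table of testis RNA: every symbol beginning with Hspa, Hsph, Hsp90 or Dnaj followed by a digit or lower-case letter, without pseudogene symbols and without Hspa5, plus the 2 factors. This gave 63 of 44509 symbols, of which 12 are Hspa genes, 1 is Hsph1, 3 encode Hsp90 proteins, 45 encode J-proteins and 2 encode factors. The samples were 2 testis libraries from mice in which busulfan, an alkylating agent toxic to dividing germ cells, had caused oligozoospermia and which were then given Cus-1, named in the series title as a resin glycoside of a cuscutae extract, and 2 testis libraries from the same busulfan model without Cus-1. All 4 libraries therefore carry the busulfan injury, and no untreated testis was analysed here. Strain, age, doses and times are not given in the labels, nor is it stated whether the 2 libraries of a group came from separate animals, so p-values measure only the spread between these libraries, which may be technical. The titles of the libraries begin with CUS2 in the Cus-1 group and with BPA in the busulfan group, so the grouping rests on the source label alone.

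Hsp70 proteins bind unfolded stretches of a client protein and release them in an ATP cycle. J-proteins deliver clients and stimulate the ATPase of Hsp70, Hsp110 proteins exchange its nucleotide, and Hsp90 proteins take over partly folded clients. In most tissues stress induces a subset of these genes through Hsf1, which binds inverted repeats of GAA in promoters. The testis also makes its own versions in spermatocytes and spermatids, among them Hspa2, which male mice need to complete meiosis.

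Values are FPKM, fragments per kilobase of gene, scaled to a fixed number of fragments per library. Differences are on log2(FPKM + 1), busulfan with Cus-1 minus busulfan, tested with limma over the 19837 genes that reached 1 FPKM in 2 or more libraries. Summed FPKM was 727125 and 739160 in the Cus-1 libraries and 726041 and 742689 in the busulfan libraries, and depths estimated from the lowest values ranged between 12.2 and 13.9 M fragments (M, 1e+06). Along the first principal component, with 65.8% of the variance, Cus-1 library 1 stood at 67, Cus-1 library 2 at 19.4, busulfan library 2 at -23.8 and busulfan library 1 at -62.6. Markers of later germ cells and of somatic cells moved with the groups. The median log2 difference was 0.91 over 15 spermatocyte genes, 1.11 over 14 round spermatid genes and 1.22 over 14 elongating spermatid genes, and this last value was 0.51 without Cus-1 library 1 and 1.93 without Cus-1 library 2. It was -0.08 over 10 genes of undifferentiated spermatogonia, -0.75 over 15 Sertoli genes and -0.49 over 12 Leydig genes, the last being -0.23 without Cus-1 library 1 and -0.78 without Cus-1 library 2. For every spermatocyte and spermatid marker both Cus-1 libraries exceeded both busulfan libraries, and for all 15 Sertoli markers both were below. In tissue RNA, fewer cells of a type and less RNA per cell cannot be told apart, and the part of cell composition in the differences below was not tested.

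Of the 63 chaperone genes, 61 reached the level for testing, and Dnajc6 and Dnajc22 stayed at or under 0.69 FPKM in every library. None of the 61 passed an adjusted p of 0.05 in limma, where the share over all genes was 0.0% of 19837. At an unadjusted p under 0.05, 18 chaperone genes were higher with Cus-1, which is 29.5% against 18.0% of all genes tested, and 2 were lower, which is 3.28% against 9.96%. The higher count was 2 without busulfan library 1 (3.28%, below the 5.84% of all genes in that fit) and 7 without Cus-1 library 1 (11.5%, against 7.25%), so the excess over all genes was absent without busulfan library 1. The lower count was 1 without either of these libraries. Both Cus-1 libraries lay above both busulfan libraries for 30 chaperone genes (49.2%, against 36.6% of all genes) and below both for 13 (21.3%, against 31.7%), while the groups overlapped for 18. The median difference was 0.13 over the 61 genes and 0.04 over all genes. It was -0.84 when each library was centred on its spermatocyte genes, a scaling that moved the median of all genes to -0.93, and 0.71 when centred on its Sertoli genes, which moved that median to 0.63. In the order busulfan 1, busulfan 2, Cus-1 2, Cus-1 1, values increased step by step for 24 chaperone genes (39.3%, against 23.5% of all genes).

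The germ-cell chaperones had the highest median difference of the chaperone groups, at 0.95 on the deposited scale and 0.60 without Cus-1 library 1. Each of the 5 genes was highest in Cus-1 library 1, next in Cus-1 library 2 and lowest in busulfan library 1. Hspa2, the Hsp70 of spermatocytes on chromosome 12 (mm10, chr12:76404176-76406938, plus strand), measured 428 and 316 FPKM in the Cus-1 libraries, against 161 and 226 FPKM in the busulfan libraries. The groups did not overlap, and Cus-1 library 1 was highest and busulfan library 1 lowest. The means were 372 ± 79.4 FPKM with Cus-1 and 193 ± 45.8 FPKM with busulfan (SD, n = 2 each), a log2 difference of 0.94 (SE 0.25, limma adjusted p = 0.152).

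Hspa1l, the Hsp70 of spermatids (chr17:34972703-34979285, plus strand), measured 105 and 41.4 FPKM with Cus-1, against 28.3 and 30.6 FPKM with busulfan. The groups did not overlap, and Cus-1 library 1 stood far above the other libraries. Its log2 difference was 1.14 (SE 0.44, limma adjusted p = 0.178), and 0.48 without Cus-1 library 1. Hspa4l, an Hsp110 relative abundant in male germ cells (chr3:40744495-40796103, plus strand), measured 299 and 211 FPKM with Cus-1, against 121 and 163 FPKM with busulfan, a log2 difference of 0.83 (SE 0.25, limma adjusted p = 0.152). Its groups did not overlap either.

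The 2 J-proteins of this group showed the same order of libraries. Dnajb3, a spermatid J-protein encoded without introns in its coding sequence (chr1:88204732-88205782, minus strand), measured 292 and 178 FPKM with Cus-1, against 107 and 129 FPKM with busulfan. The log2 difference was 0.95 (SE 0.28, limma adjusted p = 0.152), and 0.60 without Cus-1 library 1. Dnajb13, a component of the radial spokes of the sperm tail (chr7:100501716-100514960, minus strand), measured 74.5 and 45.5 FPKM with Cus-1, against 22.7 and 34.3 FPKM with busulfan, a log2 difference of 1.03 (SE 0.32, limma adjusted p = 0.153), and 0.68 without Cus-1 library 1. For both genes Cus-1 library 1 was highest and busulfan library 1 lowest, with no overlap of the groups. An exon of Dnajb13 overlaps Ucp2 on the other strand, which measured 110.3 and 113 FPKM with Cus-1 and 229 and 180.1 FPKM with busulfan, and whether fragments were counted by strand is not given in the sources used here.

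Set against some markers of germ cells in the same library, chosen after values were seen, Hspa2 and Dnajb13 no longer separated the groups. The differences of the 15 spermatocyte markers ran from 0.39 to 1.34, so such a ratio depends on the marker. Hspa1l and Hspa4l were not set against markers. Hspa2 per FPKM of the spermatocyte gene Mael was 0.678 and 0.572 with Cus-1 and 0.603 and 0.600 with busulfan. Hspa2 per FPKM of the spermatocyte gene Sycp3 was 1.62 and 1.13 with Cus-1 and 1.75 and 1.12 with busulfan. Both ratios overlapped between groups. Dnajb13 overlapped likewise against the sperm tail genes Odf1 and Akap4, with log2 differences of -0.24 and -0.10. Dnajb3 per FPKM of the acrosomal gene Acrv1 was 6.13 and 6.99 with Cus-1 and 11.9 and 7.38 with busulfan, lower in both Cus-1 libraries, a log2 difference of -0.52. Centred on spermatocyte genes, the 5 germ-cell chaperones had a median difference of -0.02.

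**Figure D1:**
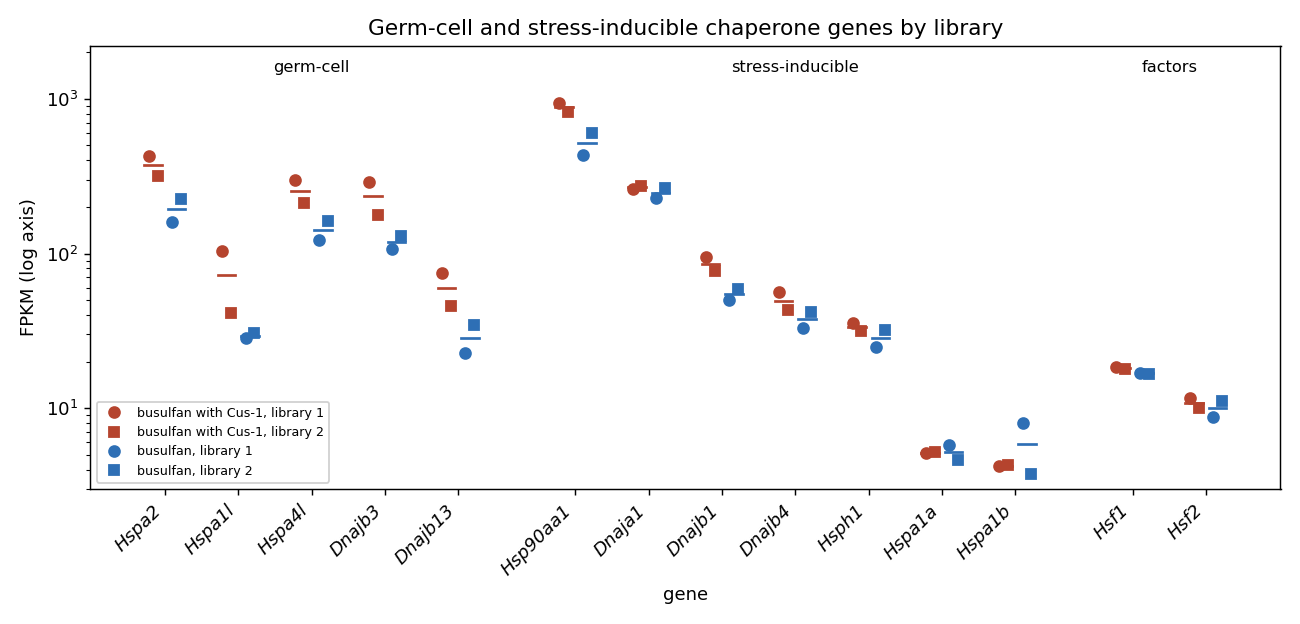
FPKM on a log axis of the 5 germ-cell chaperone genes, the 7 stress-inducible genes and the 2 factors in each library, with busulfan with Cus-1 in red and busulfan in blue; short lines are group means. All 5 germ-cell genes have both red points above both blue points, whereas Hspa1a and Hspa1b lie near 5 FPKM in most libraries of both groups; centring on spermatocyte genes puts the germ-cell median at -0.02.

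The stress-inducible genes spread from Hsp90aa1, the most abundant gene of the whole set, to Hspa1a and Hspa1b, which stood at a few FPKM. Of the 7, 3 lay above both busulfan libraries in both Cus-1 libraries (42.9%, near the 36.6% of all genes) and 4 overlapped, with a median log2 difference of 0.24, which was 0.14 without busulfan library 1 and 0.42 without busulfan library 2. The inducible Hsp70 genes did not separate the groups. Hspa1a measured 5.10 and 5.21 FPKM with Cus-1, against 5.76 and 4.64 FPKM with busulfan, a log2 difference of 0.00 (SE 0.21, limma adjusted p = 0.989). Hspa1b measured 4.20 and 4.28 FPKM with Cus-1, against 8.0 and 3.76 FPKM with busulfan, a log2 difference of -0.32 (SE 0.35, limma adjusted p = 0.543). Both Cus-1 libraries lay between the busulfan libraries for each gene, and without busulfan library 1 the differences were 0.13 for Hspa1a and 0.14 for Hspa1b. At these depths the Hspa1a values stand for an estimated 210 and 190 fragments with Cus-1 and 220 and 190 with busulfan. The copies share much sequence: 55.8% of the 75-base words of Hspa1b also occur in Hspa1a, so how fragments were split between them is uncertain.

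Hsp90aa1, the inducible cytosolic Hsp90 and a major chaperone of germ cells, measured 939 and 827 FPKM with Cus-1, against 431 and 600.1 FPKM with busulfan. The groups did not overlap. Its log2 difference was 0.79 (SE 0.23, limma adjusted p = 0.152). Dnajb1, the main J-protein partner of inducible Hsp70, measured 94.7 and 76.8 FPKM with Cus-1, against 50.3 and 59.2 FPKM with busulfan, a log2 difference of 0.63 (SE 0.18, limma adjusted p = 0.152). Dnajb4, a close relative of Dnajb1, measured 56.2 and 43.0 FPKM with Cus-1, against 33.1 and 41.9 FPKM with busulfan, a log2 difference of 0.39 (SE 0.21, limma adjusted p = 0.257). The gap for Dnajb4 between Cus-1 library 2 and busulfan library 2 was narrow, and its difference was 0.22 without busulfan library 1 and 0.20 without Cus-1 library 1.

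Hsph1, the inducible Hsp110, measured 35.6 and 31.5 FPKM with Cus-1, against 24.7 and 32.1 FPKM with busulfan. Dnaja1, a J-protein of Hsp70 that also carries client proteins, measured 263 and 272 FPKM with Cus-1, against 228 and 263 FPKM with busulfan. Both genes overlapped between groups, with log2 differences of 0.24 for Hsph1 and 0.13 for Dnaja1. Hsp90aa1 and Dnajb1 were the 2 of the 7 at an unadjusted limma p under 0.05, which is 28.6% against 18.0% of all genes, and all 5 germ-cell genes were. Centred on spermatocyte genes, the stress-inducible median was -0.73, and centred on Sertoli genes it was 0.83.

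The promoters of several of these genes are shown with the repeats that Hsf1 binds marked, as description only. The windows run from 250 bases before to 50 bases after the RefSeq start on GRCm38.p6 and are written 5′ to 3′ on the gene's strand, with matches in capitals. The motifs sought were the dimers GAANNTTC and TTCNNGAA, each of which reads the same on both strands, and a trimer on either strand, GAANNTTC followed at once by NNGAA, which contains both dimers. Hspa1a (chr17:34972107-34972406, minus strand) and Hspa1l (chr17:34972453-34972752, plus strand) are neighbours transcribed away from each other, with starts 547 bases apart. Hspa2 (chr12:76404120-76404419, plus strand) stands for the germ-cell group. Hsph1 (chr5:149636266-149636565, minus strand) and Dnajb6 (chr5:29735648-29735947, plus strand) are the genes with a trimer among those that had a window.
Hspa1a: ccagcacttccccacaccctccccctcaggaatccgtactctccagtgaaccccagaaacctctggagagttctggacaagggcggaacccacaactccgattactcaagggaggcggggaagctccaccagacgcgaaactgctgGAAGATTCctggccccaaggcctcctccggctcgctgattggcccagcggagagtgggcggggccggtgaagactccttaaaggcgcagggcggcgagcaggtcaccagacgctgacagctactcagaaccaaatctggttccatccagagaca
Hspa1l: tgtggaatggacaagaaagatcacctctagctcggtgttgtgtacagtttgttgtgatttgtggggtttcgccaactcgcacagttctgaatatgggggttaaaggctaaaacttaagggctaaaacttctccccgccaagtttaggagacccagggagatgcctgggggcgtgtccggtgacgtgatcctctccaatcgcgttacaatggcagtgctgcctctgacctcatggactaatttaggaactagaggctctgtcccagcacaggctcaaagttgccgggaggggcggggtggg
Hspa2: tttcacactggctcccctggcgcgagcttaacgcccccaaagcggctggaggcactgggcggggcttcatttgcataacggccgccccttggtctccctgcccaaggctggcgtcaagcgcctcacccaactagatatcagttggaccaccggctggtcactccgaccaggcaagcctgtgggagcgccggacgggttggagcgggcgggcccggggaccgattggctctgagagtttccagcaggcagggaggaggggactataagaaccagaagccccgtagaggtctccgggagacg
Hsph1: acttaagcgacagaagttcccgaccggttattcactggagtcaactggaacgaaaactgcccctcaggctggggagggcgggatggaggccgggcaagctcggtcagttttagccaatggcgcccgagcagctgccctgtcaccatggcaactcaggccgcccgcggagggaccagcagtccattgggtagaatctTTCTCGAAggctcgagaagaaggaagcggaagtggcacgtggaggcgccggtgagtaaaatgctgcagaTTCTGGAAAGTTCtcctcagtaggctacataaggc
Dnajb6: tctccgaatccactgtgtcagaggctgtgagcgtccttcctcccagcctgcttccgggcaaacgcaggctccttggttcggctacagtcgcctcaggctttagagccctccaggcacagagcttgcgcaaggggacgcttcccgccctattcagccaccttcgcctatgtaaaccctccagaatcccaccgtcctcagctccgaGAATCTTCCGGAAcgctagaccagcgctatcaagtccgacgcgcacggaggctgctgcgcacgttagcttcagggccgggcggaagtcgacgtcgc
Of 6 stress-inducible genes with a window, 5 held a dimer of either kind in at least 1 window: Dnaja1, Dnajb4, Hspa1a, Hspa1b and Hsph1. Of the 5 germ-cell genes, 0 held a dimer. With a dimer in only 15.1% of all windows, so few genes cannot show a lack of it. Counted by window, 12 of the 64 chaperone windows held a dimer, and 15.1% of all 32851 windows did. Several stress-inducible genes had more than 1 window, so counts of genes and shares of windows are not like for like. GAANNTTC occurred in 7.86% of all windows, TTCNNGAA in 8.52% and the trimer in 0.603%. The windows of Hspa1a and Hspa1b differed at 4 of 300 bases. Only 49 of the 63 chaperone genes had a window, and those without one include Hsp90aa1, Hspa8, Hsp90ab1 and Dnajc5b. The cyclic AMP response element TGACGTCA, a motif of factors active in spermatids, occurred in 1.79% of all windows and, among chaperone genes, in 1 gene, Dnajc27, and the letters TATAAA occurred in 13.6% of all windows and in 2 chaperone genes. A match in such a window is a description of its letters. Across the 547 bases between their starts, Hspa1l was 14.2 ± 8.88 times the FPKM of Hspa1a with Cus-1 and 5.75 ± 1.19 times with busulfan (SD, n = 2 each). The ratio was 20.5 and 7.95 in the Cus-1 libraries and 4.91 and 6.60 in the busulfan libraries, without overlap.

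Read side by side within each library, the germ-cell group stood farther above the stress-inducible group with Cus-1. The median log2 level of the 5 germ-cell genes minus that of the 7 stress-inducible genes was 2.36 and 2.03 in the Cus-1 libraries, against 1.66 and 1.60 in the busulfan libraries (pooled SD 0.17). Both Cus-1 libraries were above both busulfan libraries, and apart from the pseudocount this contrast does not depend on scaling between libraries. The medians of the log2 differences were 0.71 apart, and 0.44 apart without Cus-1 library 1. Hsp90aa1 and Dnajb1, at 0.79 and 0.63, came nearest to the lowest germ-cell value, the 0.83 of Hspa4l.

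**Figure D2:**
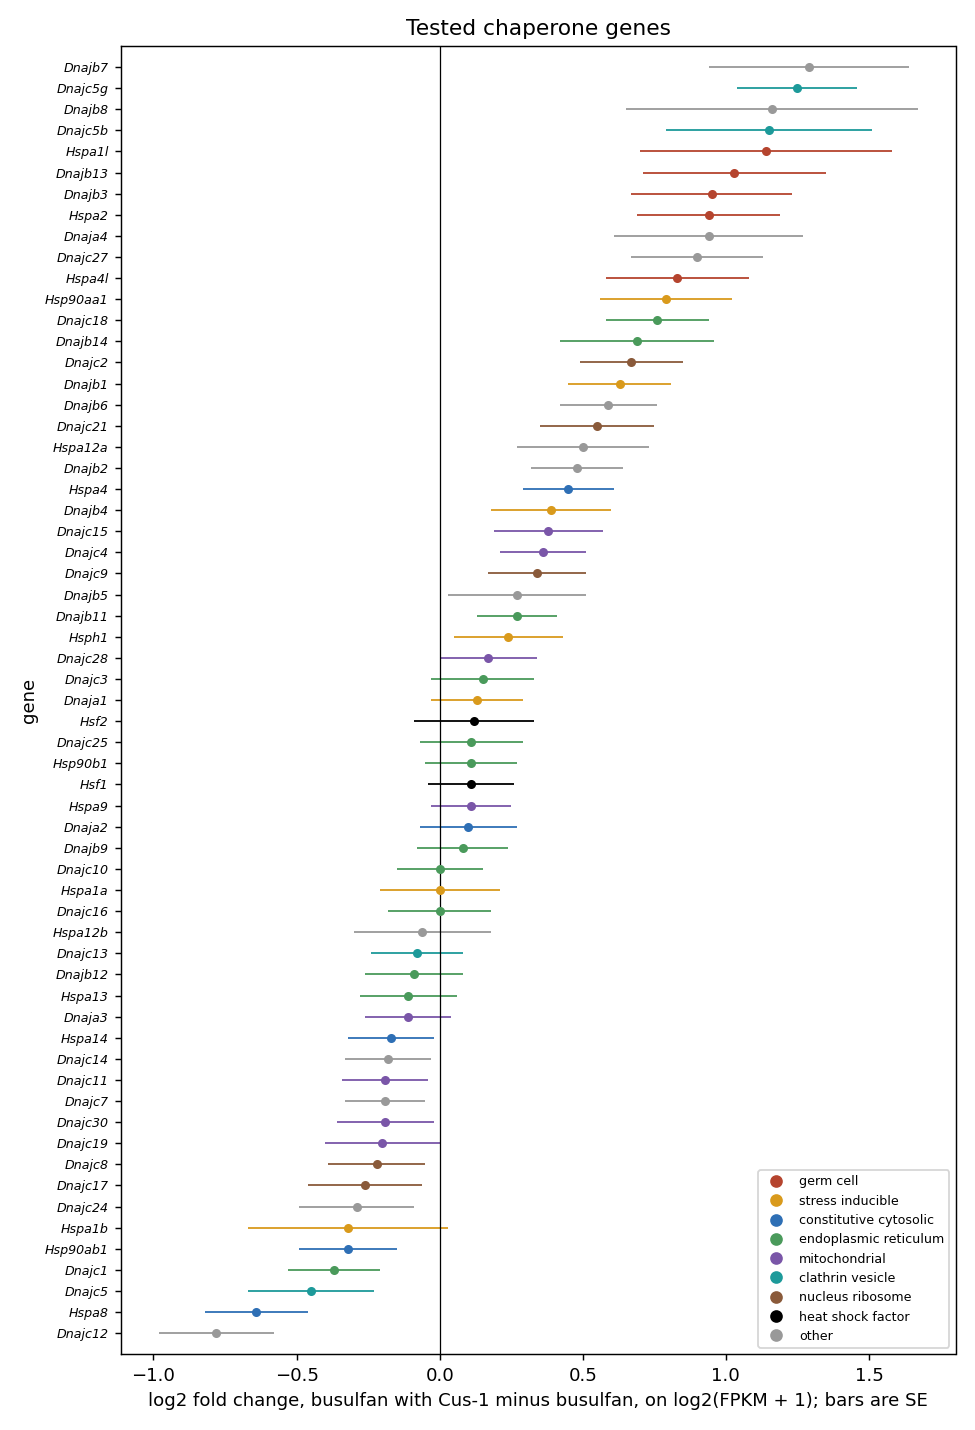
Log2 difference (busulfan with Cus-1 minus busulfan, on log2(FPKM + 1)) of the 61 tested chaperone genes in order of size, with bars of 1 SE, coloured by group. The 5 germ-cell genes run between 0.83 and 1.14, the 7 stress-inducible genes between -0.32 and 0.79, and Dnajc12 is lowest at -0.78; 23 genes lie below 0 on the deposited scale, 55 with centring on spermatocyte genes and 2 with centring on Sertoli genes.

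The differences of the factors themselves were smaller than their standard errors. Hsf1, the main activator of the heat shock response, measured 18.5 and 18.04 FPKM with Cus-1, against 17.0 and 16.6 FPKM with busulfan, higher in both Cus-1 libraries by a log2 difference of 0.11 (SE 0.15, limma adjusted p = 0.621). Hsf2, a factor active in spermatogenesis, measured 11.6 and 10.1 FPKM with Cus-1, against 8.72 and 11.2 FPKM with busulfan. The groups overlapped for Hsf2, and its log2 difference of 0.12 (SE 0.21, limma adjusted p = 0.704) was -0.04 without busulfan library 1. The differences of 5 other tested factors and regulators lay between -0.38 and 1.36. At an unadjusted p under 0.05, 1 of them was higher (20.0%, near the 18.0% of all genes). This was Hsf5, a testis heat shock factor of spermatocytes, at 57.2 and 45.9 FPKM with Cus-1, against 21.7 and 32.1 FPKM with busulfan, a log2 difference of 0.93 (SE 0.24, limma adjusted p = 0.152). Hsbp1, which binds the Hsf1 trimer, measured 255 and 251 FPKM with Cus-1, against 175 and 219 FPKM with busulfan, a log2 difference of 0.37.

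The constitutive cytosolic chaperones were mixed on the deposited scale. Of 5 genes, 3 lay below both busulfan libraries in both Cus-1 libraries (60.0%, against 31.7% of all genes), 1 lay above (20.0%, against 36.6%) and 1 overlapped, with a median of -0.17. At an unadjusted p under 0.05, 1 was higher (20.0%, near the 18.0% of all genes) and 1 lower (20.0%, against 9.96%). Hspa8, the housekeeping Hsp70, measured 95.2 and 113 FPKM with Cus-1, against 146 and 179 FPKM with busulfan. The groups did not overlap, and the log2 difference was -0.64 (SE 0.18, limma adjusted p = 0.152). A processed pseudogene of Hspa8, Gm15459 (chr5:5781615-5783555, minus strand), holds 30.2% of the 75-base words of Hspa8 and was listed above it, at 272 and 372 FPKM with Cus-1 and 442 and 468 FPKM with busulfan. How fragments were split between the copies is therefore uncertain, but their sum was also lower in both Cus-1 libraries, at 367 and 485 FPKM, against 587 and 647 FPKM with busulfan. Hsp90ab1, the constitutive Hsp90, measured 381 and 424 FPKM with Cus-1, against 534 and 470.0 FPKM with busulfan, a log2 difference of -0.32 (SE 0.17, limma adjusted p = 0.262). Hspa4, a constitutive Hsp110 relative, lay the other way at 137 and 118 FPKM with Cus-1, against 86.5 and 100.1 FPKM with busulfan, a log2 difference of 0.45 (SE 0.16, limma adjusted p = 0.171).

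Within families, the copy abundant in germ cells took a larger share of the RNA with Cus-1, a measure that does not depend on scaling between libraries. Of the summed FPKM of the cytosolic Hsp70 genes, Hspa2 held 67.2% and 65.9% with Cus-1, against 46.2% and 50.8% with busulfan. This sum leaves out the pseudogene Gm15459, so the size of these shares depends on the uncertain split of fragments. Hspa8 held 14.9% and 23.5% with Cus-1, against 41.8% and 40.4% with busulfan. Hspa2 per FPKM of Hspa8 was 4.50 and 2.81 with Cus-1 and 1.11 and 1.26 with busulfan, and with the pseudogene added to Hspa8 it was 1.17 and 0.652 with Cus-1 and 0.274 and 0.349 with busulfan. Neither form of the ratio overlapped between groups. The sum of the Hsp70 genes, again without Gm15459, was 637 and 480 FPKM with Cus-1 and 349 and 444 FPKM with busulfan. That pseudogene went the other way, at 272 and 372 FPKM with Cus-1 and 442 and 468 FPKM with busulfan. The difference in the sum therefore also depends on how fragments were split.

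Hsp90aa1 held 71.2% and 66.1% of the cytosolic Hsp90 sum with Cus-1, against 44.6% and 56.1% with busulfan. The ratio of Hsp90aa1 to Hsp90ab1 was 2.47 and 1.95 with Cus-1 and 0.806 and 1.28 with busulfan, so Hsp90ab1 exceeded Hsp90aa1 in busulfan library 1 alone. Of the 75-base words of Hsp90aa1, 36.2% also occur in the pseudogene Gm12346, which was listed at no more than 0.14 FPKM. Hspa4l per FPKM of Hspa4 was 2.19 and 1.78 with Cus-1 and 1.40 and 1.63 with busulfan, again without overlap. Hsf2 per FPKM of Hsf1, in contrast, was 0.628 and 0.559 with Cus-1 and 0.513 and 0.674 with busulfan, with overlap. Hspa8 per FPKM of the Sertoli gene Cldn11 was 0.685 and 0.672 with Cus-1 and 0.491 and 0.801 with busulfan, also with overlap.

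**Figure D3:**
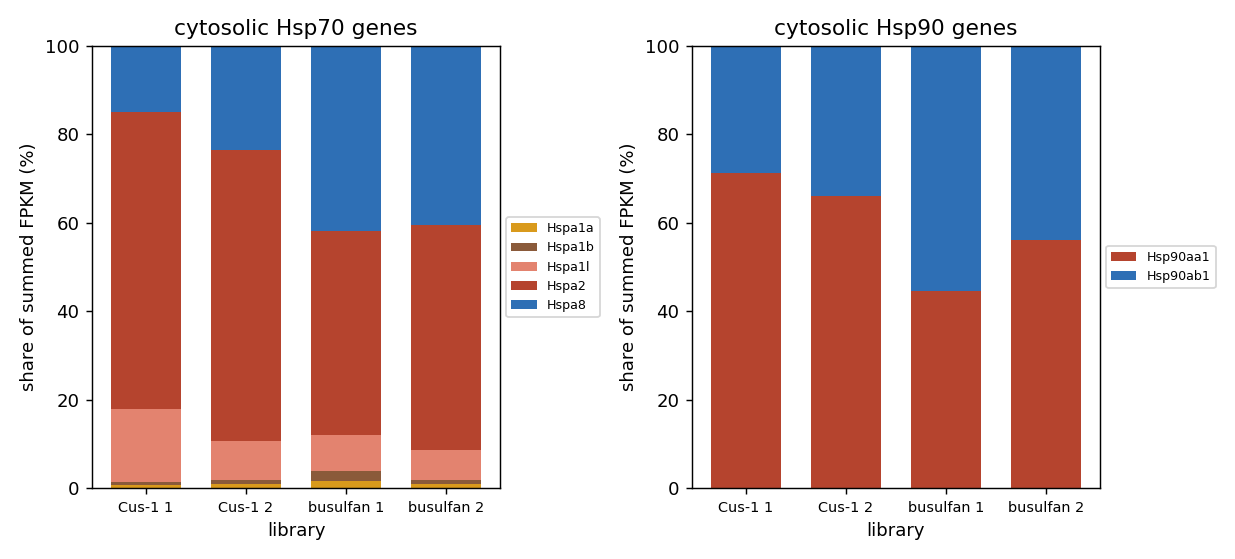
Share (%) of each gene in the summed FPKM of the cytosolic Hsp70 genes (left) and Hsp90 genes (right), 1 bar per library. Hspa2 takes 67.2% and 65.9% in the Cus-1 libraries against 46.2% and 50.8% in the busulfan libraries. Hsp90aa1 takes 71.2% and 66.1% against 44.6% and 56.1%. The pseudogene of Hspa8 is left out of the Hsp70 sum, and the split of fragments between them is uncertain.

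Several J-proteins outside the germ-cell list had differences as large. Dnajc5g and Dnajc5b are testis relatives of Dnajc5, the cysteine string protein of secretory vesicles. Dnajc5g measured 124 and 88.0 FPKM with Cus-1, against 42.8 and 43.9 FPKM with busulfan. The groups lay far apart beside the spread within each, and the log2 difference of 1.25 (SE 0.21, limma adjusted p = 0.152) had the smallest p of the 61 genes, 0.00176 before adjustment. Dnajc5b measured 69.2 and 33.8 FPKM with Cus-1, against 19.5 and 23.2 FPKM with busulfan, a log2 difference of 1.15 (SE 0.36, limma adjusted p = 0.154), and 0.64 without Cus-1 library 1. Dnajc5 itself measured 25.4 and 33.2 FPKM with Cus-1, against 46.2 and 34.8 FPKM with busulfan, a log2 difference of -0.45 (SE 0.22, limma adjusted p = 0.231), and -0.25 without busulfan library 1. Dnajc5g per FPKM of Dnajc5 was 4.88 and 2.65 with Cus-1 and 0.926 and 1.26 with busulfan, without overlap.

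Among class B J-proteins, 12 of 13 had a positive difference on the deposited scale and 10 lay above both busulfan libraries in both Cus-1 libraries (76.9%, against 36.6% of all genes), with a median of 0.59, which was -0.38 with centring on spermatocyte genes. The class C median was 0.00 over 26 genes. Dnajb7, a J-protein whose coding sequence lies in 1 exon, measured 24.9 and 12.8 FPKM with Cus-1, against 5.94 and 7.62 FPKM with busulfan, a log2 difference of 1.29 (SE 0.35, limma adjusted p = 0.152), and 0.84 without Cus-1 library 1. Dnajb8, a testis J-protein that holds back protein aggregation, measured 76.7 and 25.9 FPKM with Cus-1, against 17.9 and 20.96 FPKM with busulfan. Its log2 difference of 1.16 (SE 0.51, limma adjusted p = 0.202) was 0.40 without Cus-1 library 1, and an exon overlaps the sparsely detected 1700031F10Rik on the other strand. Dnajb6, its broadly expressed relative and a holder of the trimer shown above, measured 289 and 257 FPKM with Cus-1, against 168 and 195 FPKM with busulfan, a log2 difference of 0.59 (SE 0.17, limma adjusted p = 0.152). The libraries of each group lay close together for Dnajb6 and the groups were apart.

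The Cus-1 libraries differed from each other more for some chaperone genes than for others. Cus-1 library 1 was at least 1.5 times Cus-1 library 2 for 9 of 61 chaperone genes, and for 0 was it lower by as much. The same share over all genes is not given here, so these counts do not set the chaperone genes apart. The ratio was 2.97 for Dnajb8, 2.53 for Hspa1l, 2.05 for Dnajc5b, 1.94 for Dnajb7, 1.86 for Dnaja4, 1.64 for Dnajb13 and 1.64 for Dnajb3. It was 1.36 for Hspa2, 1.21 for Dnajc2, 1.14 for Hsp90aa1, 1.13 for Dnajb6 and 0.845 for Hspa8. In the same libraries the ratio of summed FPKM was 2.61 for elongating spermatid markers, 1.49 for round spermatid markers, 1.12 for spermatocyte markers and 0.863 for Sertoli markers. Between the busulfan libraries, library 2 over library 1 was 1.51 for Dnajb13, 1.29 for Dnaja4, 1.28 for Dnajb7 and 1.21 for Dnajb3. It was 1.40 for Hspa2, 1.39 for Hsp90aa1, 1.23 for Hspa8 and 1.19 for Dnajc5b. It was 1.18 for Dnajc2, 1.17 for Dnajb8, 1.16 for Dnajb6 and 1.08 for Hspa1l. For summed FPKM it was 1.5 for spermatocyte, 1.39 for round spermatid, 1.08 for elongating spermatid and 0.789 for Sertoli markers. The chaperone genes thus ranked differently within each group, and the part of these cell types in that was not tested.

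Other genes with small p are spread over compartments. Dnajc27, a J-protein joined to a Rab-like GTPase, measured 46.4 and 35.5 FPKM with Cus-1, against 18.3 and 24.6 FPKM with busulfan, a log2 difference of 0.90 (SE 0.23, limma adjusted p = 0.152). Dnajc18, of the endoplasmic reticulum, measured 31.7 and 24.9 FPKM with Cus-1, against 16.2 and 16.1 FPKM with busulfan, a log2 difference of 0.76 (SE 0.18, limma adjusted p = 0.152). Dnajc2, which sits on ribosomes and assists emerging chains, measured 89.8 and 74.2 FPKM with Cus-1, against 46.8 and 55.4 FPKM with busulfan, a log2 difference of 0.67 (SE 0.18, limma adjusted p = 0.152). The groups were apart for each of these genes. Dnajc21, which acts in maturation of the large ribosomal subunit, measured 59.4 and 52.6 FPKM with Cus-1, against 32.5 and 43.9 FPKM with busulfan, a log2 difference of 0.55 (SE 0.20, limma adjusted p = 0.168), and 0.34 without busulfan library 1.

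In the lower direction, Dnajc12, a co-chaperone of the aromatic amino acid hydroxylases, had the lowest difference of the set. It measured 9.15 and 9.33 FPKM with Cus-1, against 18.9 and 14.6 FPKM with busulfan, a log2 difference of -0.78 (SE 0.20, limma adjusted p = 0.152). The Cus-1 libraries lay close together and well below both busulfan libraries. Dnajc12 and Hspa8 were the 2 genes lower at an unadjusted p under 0.05, and with centring on Sertoli genes their differences were -0.20 and -0.05.

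The abundant organelle chaperones had small differences. Of 12 genes of the endoplasmic reticulum, 4 lay above both busulfan libraries in both Cus-1 libraries (33.3%, near the 36.6% of all genes), 1 lay below (8.33%, against 31.7%) and 7 overlapped. Their median was 0.09, with a range of -0.37 to 0.76. At an unadjusted p under 0.05, 1 of them, Dnajc18, was higher (8.33%, against 18.0% of all genes). Hsp90b1, the Hsp90 of that compartment, measured 424 and 466 FPKM with Cus-1, against 408 and 419 FPKM with busulfan, a log2 difference of 0.11. Dnajb11, which serves the Hsp70 of the same compartment, measured 82.5 and 81.8 FPKM with Cus-1, against 64.8 and 71.3 FPKM with busulfan, a log2 difference of 0.27 (SE 0.14, limma adjusted p = 0.249). Of 8 mitochondrial genes, 0 reached an unadjusted p under 0.05, with differences between -0.20 and 0.38 and a median of 0.00. Hspa9, the mitochondrial Hsp70, measured 142 and 146 FPKM with Cus-1, against 127 and 139 FPKM with busulfan, a log2 difference of 0.11. Dnajc15, a J-protein of the inner membrane import machinery, measured 65.6 and 81.7 FPKM with Cus-1, against 51.1 and 61.5 FPKM with busulfan, a log2 difference of 0.38. Across both compartments, centring on spermatocyte genes put the medians at -0.88 and -0.97, close to the median of all genes under that scaling.

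Among other abundant J-proteins the direction was mixed. Dnajc7, a J-protein that binds both Hsp70 and Hsp90, measured 141 and 135 FPKM with Cus-1, against 159.6 and 155 FPKM with busulfan, a log2 difference of -0.19. Dnajc8, associated with the spliceosome, measured 91.5 and 111 FPKM with Cus-1, against 126 and 109 FPKM with busulfan, a log2 difference of -0.22. The groups were apart for Dnajc7 and overlapped for Dnajc8. Dnaja2, a constitutive class A J-protein, overlapped too, with a difference of 0.10, and Dnajb2, a J-protein of class B, was higher in both Cus-1 libraries with a difference of 0.48. Dnaja4, of class A, measured 47.3 and 25.5 FPKM with Cus-1, against 15.5 and 20.1 FPKM with busulfan, a log2 difference of 0.94 (SE 0.33, limma adjusted p = 0.166), and 0.50 without Cus-1 library 1. Dnajb14, of the endoplasmic reticulum, had a difference of 0.69, and 0.37 without Cus-1 library 1.

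Partner proteins of the chaperones that are not themselves in the families were mixed. Of 14 Hsp70 co-chaperones tested, 2 were higher (14.3%, against 18.0% of all genes) and 0 lower (against 9.96%) at an unadjusted p under 0.05, with a median of 0.02. The 2 were Bag5, a nucleotide exchange factor, at 225 and 157 FPKM with Cus-1, against 94.0 and 111 FPKM with busulfan, and St13, which stabilises the client-bound state of Hsp70, at 195 and 179 FPKM with Cus-1, against 129.8 and 134 FPKM with busulfan. Their log2 differences were 0.87 (SE 0.23, limma adjusted p = 0.152) for Bag5 and 0.50 (SE 0.14, limma adjusted p = 0.152) for St13. Bag1, another exchange factor, measured 197 and 191 FPKM with Cus-1, against 167 and 182 FPKM with busulfan, and Stip1, which bridges Hsp70 and Hsp90, had a difference of 0.02.

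Of 14 Hsp90 co-chaperones, 0 were higher (against 18.0% of all genes) and 2 lower (14.3%, against 9.96%) at that p, with a median of -0.10. Chordc1, 1 of the lower genes, measured 13.4 and 12.2 FPKM with Cus-1, against 17.2 and 20.0 FPKM with busulfan. The abundant immunophilin Fkbp4 measured 382 and 347 FPKM with Cus-1, against 282 and 288 FPKM with busulfan, a log2 difference of 0.35 (SE 0.16, limma adjusted p = 0.203). Ptges3, the p23 co-chaperone, measured 122 and 118 FPKM with Cus-1, against 88.3 and 110.1 FPKM with busulfan, a log2 difference of 0.28. Neither Fkbp4 nor Ptges3 overlapped between groups.

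Among 16 small heat shock proteins and chaperonin subunits, 5 were higher (31.2%, against 18.0% of all genes) and 2 lower (12.5%, against 9.96%) at an unadjusted p under 0.05, and for 11 both Cus-1 libraries lay above both busulfan libraries (68.8%, against 36.6% of all genes). Hspb9, a small heat shock protein of the testis, measured 593 and 529.9 FPKM with Cus-1, against 237 and 279 FPKM with busulfan, a log2 difference of 1.12 (SE 0.18, limma adjusted p = 0.152). The groups were far apart beside their spread. Tcp1, a subunit of the cytosolic chaperonin, measured 853 and 741 FPKM with Cus-1, against 368 and 531 FPKM with busulfan, a log2 difference of 0.85 (SE 0.24, limma adjusted p = 0.152). Cct6b, the testis version of another subunit, measured 129 and 102 FPKM with Cus-1, against 55.5 and 65.5 FPKM with busulfan, a log2 difference of 0.92. The other 2 higher genes were the subunits Cct7 and Cct4, with differences of 0.65 and 0.49. The lower genes were the somatic small heat shock proteins Hspb1 and Hspb8. Hspb1 measured 61.6 and 81.0 FPKM with Cus-1, against 147 and 99 FPKM with busulfan, a log2 difference of -0.76, and -0.48 without busulfan library 1. Hspb8 had a difference of -0.77, and -0.41 without Cus-1 library 1. Centred on spermatocyte genes the median of this list was -0.61, against 0.36 on the deposited scale.

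**Figure D4:**
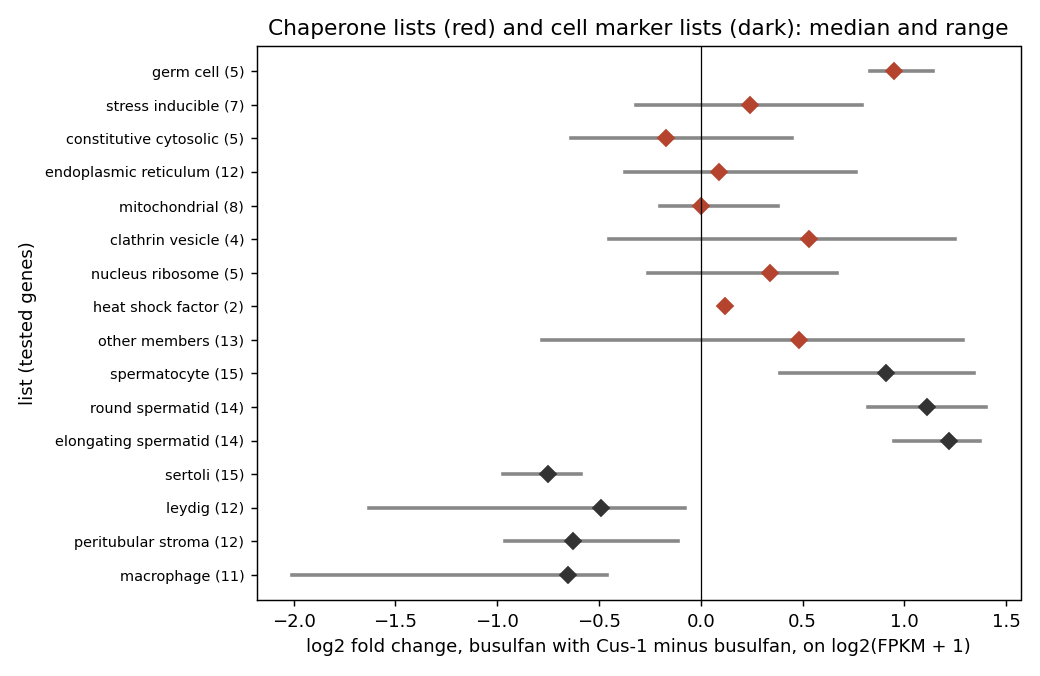
Median (diamond) and range (line) of the log2 difference, busulfan with Cus-1 minus busulfan, for each chaperone group (red) and for cell marker lists (dark), with the number of tested genes in brackets. The germ-cell chaperones (median 0.95) lie beside the spermatocyte and spermatid markers (0.91, 1.11 and 1.22). The stress-inducible (0.24), constitutive (-0.17), endoplasmic reticulum (0.09) and mitochondrial (0.00) medians lie nearer 0. Constitutive genes run from -0.64 to 0.45, and Sertoli markers (median -0.75) from -0.97 to -0.59. The clathrin vesicle, nucleus and ribosome, and other groups have medians of 0.53, 0.34 and 0.48. With centring on spermatocyte genes the germ-cell chaperones are at -0.02.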

How the data were processed

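RNA from mouse testis was measured in 4 libraries, 2 of busulfan with Cus-1 and 2 of busulfan, grouped by their source label; replicate numbers follow the order of submission and pair nothing. The authors deposited 1 table of FPKM per gene and library, with mm10 as the genome build per the submitters' processing notes; for the aligner, counter, annotation and strand setting, nothing is given in the sources used here. The 910 rows without a gene name (0.641% to 0.688% of summed FPKM) were left out, and the 115 symbols on several rows took the row with the highest mean. The deposited FPKM were converted to log2(FPKM + 1) and tested with limma 3.58.1 in R 4.3.3, with a mean-variance trend, two-sided, over the 19837 genes that reached 1 FPKM in 2 or more libraries, with Benjamini-Hochberg adjustment over all of them and a threshold of 0.05. The pseudocount understates the change of low genes. With 2 libraries against 2, an exact permutation test of 1 gene cannot go below 0.333, so no such test is given. The fit was tested on simulated data.

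Depth was estimated from the steps between the lowest FPKM values of genes of known length, which gave 13.9 and 12.2 M fragments (M, 1e+06) with Cus-1 and 12.6 and 13.5 M with busulfan, so no counting interval is given. Positions and shared 75-base words come from GENCODE M21, which matched all 63 genes, and promoters from RefSeq on GRCm38.p6, which matched 49 genes with 64 windows.

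The members and lists were chosen with earlier results of these data known. Full values were given for the germ-cell, stress-inducible and factor lists, for up to 10 members with the smallest p in each direction at an absolute log2 difference of 0.5 or more, for the 10 most abundant members, and for the 2 most abundant tested genes of each other list. Dnaja2, Dnajb2, Dnajb8, Dnajb14, Dnaja4, Dnajc5, Dnajc21, Hspa4, Bag5, Stip1, Chordc1, Cct4, Cct6b, Cct7, Hspb1, Hspb8, Ucp2, the pseudogenes and the marker genes used in ratios were named after their values were seen. The alternatives were another pseudocount (0.1), a filter at 5 FPKM, no filter, rescaling to TPM, quantile normalization, centring on spermatocyte or Sertoli genes, limma without the trend, and leaving out each library. The values of 1 gene of the Hsp90 co-chaperone list are not reported here.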

Additional observations from a re-analysis of the deposited data

How the results depend on the processing

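The 61 chaperone genes gave 0 past the adjusted limma threshold under every alternative except centring on Sertoli genes, which gave 20 (32.8%, against 26.5% of all genes). At an unadjusted p under 0.05, the 18 higher genes became 0 with centring on spermatocyte genes (against 0.121% of all genes) and 28 with centring on Sertoli genes (45.9%, against 37.8%), and ranged from 2 to 19 when libraries were left out in turn, with 2 without busulfan library 1. The 2 lower genes became 0 with centring on Sertoli genes (against 0.444% of all genes) and 1 to 2 when libraries were left out. The gap of 0.71 between the germ-cell and stress-inducible medians ranged from 0.44 without Cus-1 library 1 to 0.98 without Cus-1 library 2. Leaving out libraries turned the sign for 5 named genes: Dnaja2 ranged from -0.05 to 0.25, Hsf2 ranged from -0.04 to 0.28, Hspa1a from -0.14 to 0.13 with 0.01 without Cus-1 library 1, Hspa1b from -0.78 to 0.14, and Stip1 from -0.07 to 0.11 with -0.01 without Cus-1 library 2. The cause was not tested. Of 21 chaperone genes with a difference of 0.5 or more in size, 9 had one smaller by over 1.5 times without Cus-1 library 1 and 1 without busulfan library 1. The same counts over all genes are not given here. A fit that leaves a group with 1 library assumes that it varies like the other group. No paired analysis was possible because the labels give no replicate numbers that the groups share. Depth was only estimated.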
